A study of Mus musculus with 12 samples.

Results

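Dazl, Ddx4, Mael, Asz1, Stk31, Hormad1, Tex101, Dpep3, Sycp1 and Sycp3 are genes of the germ line whose promoters are known to carry DNA methylation in somatic tissue. They were followed here in the oral soft tissue of mice, as 10 of the 22350 protein-coding genes annotated on chromosomes 1 to 19 and X of the mm9 build. A promoter was taken as the 1000 bp on either side of the gene start in GENCODE vM1, and its methylation level as the percent of methylated calls among all calls at the CpGs in that window, where a call is 1 read of 1 CpG cytosine. The 6 genes Dazl, Ddx4, Mael, Tex101, Sycp1 and Sycp3 had at least 10 calls in each of the 12 samples and could be tested with the other promoters that met this minimum, 11840 in all. Asz1, Stk31, Hormad1 and Dpep3 fell below 10 calls in at least 1 sample and are described by their levels.

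Methylation was read by enhanced reduced representation bisulfite sequencing (ERRBS), in which DNA is cut by MspI at CCGG and treated with bisulfite, so that a methylated cytosine is still read as C and an unmethylated one as T. The tissue came from female B6C3F1/J mice that were 8 weeks old when they entered the study, about 1 week before the first dose, and buccal mucosa, floor of the mouth and the soft tissue on the hard palate were pooled for each DNA extraction. The 4 groups had 3 samples each. The DMSO group received the vehicle, dimethyl sulfoxide. The DBP group received 24 nmol of dibenzo[a,l]pyrene (also named dibenzo[def,p]chrysene), a polycyclic aromatic hydrocarbon of tobacco smoke, applied in the oral cavity 3 times a week for 5 weeks. The DBP+agent group received DBP together with a second, chemopreventive agent whose name is not given in the labels, and the DBP+BR group received DBP with a chemopreventive agent labelled BR extract. Tissue was collected 48 h after the last dose, so these are exposed and not tumor samples, and all 9 samples outside the DMSO group had received the carcinogen. The labels do not state that each sample is a separate mouse, so p-values measure the spread between samples only, which may be technical.

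Germ cells must pass their genome on intact, and they use proteins that other tissues do not make: those that pair and recombine the chromosomes in meiosis, and those that keep transposons silent through small piRNAs. Many of the genes for these proteins have promoters rich in CpG, a kind of promoter that usually has no methylation in any tissue. Germline genes are an exception, since many of them are methylated early in embryonic life, remain so in somatic cells, and lose the methylation in primordial germ cells.

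The stretches below show what the sequencing read, and were chosen as the 120 bases with the most calls in the promoter that hold no untranslated exon base. They are given 5′ to 3′ on the strand of the gene, from mm9, with each CpG in capitals. Of Dazl, 2 stretches are shown because they differed in methylation. The first lay at chr17:50432611-50432730, in the first intron, and was 96.3% ± 4.18 methylated (SD, n = 8 samples with at least 10 calls). The second lay at chr17:50432300-50432419, further into the same intron, held 16 CpGs and was 4.73% ± 1.91 methylated (n = 12). Both are on the minus strand.
Dazl first stretch: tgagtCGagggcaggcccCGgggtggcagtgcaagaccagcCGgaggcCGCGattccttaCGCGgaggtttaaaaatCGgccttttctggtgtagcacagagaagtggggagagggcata
Dazl second stretch: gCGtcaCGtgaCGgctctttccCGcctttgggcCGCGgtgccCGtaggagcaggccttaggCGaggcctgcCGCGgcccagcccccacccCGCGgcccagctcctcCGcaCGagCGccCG

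The other stretches come from 4 promoters whose best-read part was methylated. That of Ddx4 lay just upstream of the gene at chr13:113442600-113442719 on the minus strand, held 17 CpGs and was 81.4% ± 9.51 methylated (n = 11). That of Mael lay upstream at chr1:168168879-168168998 on the minus strand and was 76.3% ± 7.55 methylated (n = 12). That of Hormad1 lay upstream at chr3:95363476-95363595 on the plus strand and was 87.0% ± 8.08 methylated (n = 8). That of Sycp3 lay in an intron at chr10:87922681-87922800 on the plus strand and was 76.8% ± 8.86 methylated (n = 12).
Ddx4: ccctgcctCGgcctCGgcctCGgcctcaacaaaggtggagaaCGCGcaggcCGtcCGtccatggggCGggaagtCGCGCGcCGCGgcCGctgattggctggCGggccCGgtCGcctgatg
Mael: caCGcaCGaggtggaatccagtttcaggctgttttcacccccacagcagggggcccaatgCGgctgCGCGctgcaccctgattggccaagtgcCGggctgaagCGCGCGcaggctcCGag
Hormad1: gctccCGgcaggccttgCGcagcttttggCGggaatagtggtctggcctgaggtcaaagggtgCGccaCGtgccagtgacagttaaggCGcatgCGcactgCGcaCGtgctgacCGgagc
Sycp3: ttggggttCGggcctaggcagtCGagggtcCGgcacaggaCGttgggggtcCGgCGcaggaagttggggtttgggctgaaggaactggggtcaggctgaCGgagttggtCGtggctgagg

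The letters CACGTG, the E-box bound by factors such as MAX and MGA, stand 2 times in the Hormad1 stretch and 1 time in the second stretch of Dazl. Both strands were searched. Over the whole windows, CACGTG was found in 8 of the 10 promoters and in 27.8% of all 22350, and from 250 bp before to 50 bp after the start in 6 of the 10 and in 7.79% of all. The letters GCGGGA, which are part of sites of the E2F family, were found in 7 of the 10 windows and in 55.3% of all, and in 5 of the 10 and 24.4% of all near the start. A match shows the letters only and not that a factor was bound. The 10 windows had a median of 66.5 CpGs against 61 over all promoters, a ratio of observed to expected CpGs of 0.582 against 0.468, and a GC content of 50.9% against 51.1%.

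The depth of the libraries differed between the groups. The DMSO samples had 3287367 to 7774032 calls and the DBP samples 7515975 to 7974299, whereas the DBP+agent samples had 16908728 to 39615620 calls and the DBP+BR samples 17712547 to 78889043, so that depth and added agent cannot be told apart. The library DBP+BR 1 had no read at 4.73% of the CpGs that had at least 10 reads in each of the other 11, while in no other library did this share pass 0.210%. In all libraries CpGs within MspI sites had higher levels than others: over CpGs with at least 10 reads in every sample, the median was 63.9% for 13742 CpGs in MspI sites and 0.833% for 27006 others. Without these CpGs 5 of the germline promoters could be tested, with a smallest unadjusted p in limma of 0.131. In each comparison 0 of the 5 were called, beside 0 of all 11024 promoters then tested. Of the 11024, 2691 had an unadjusted p in limma under 0.05 for any difference among the groups, against 775 of 11840 with all CpGs. For DBP against DMSO 626 did, for DBP+agent against DBP 1530 and for DBP+BR against DBP 1486. The median level of the 11024 was 0.748%. The fit used the log2 ratio of methylated to unmethylated calls with 1 added to each. Near 0% this ratio also moves with the number of calls, which differed between the groups. These counts therefore cannot be read as differences in methylation. With all CpGs the count for any difference was 612 when 0.5 was added and 2902 when 5 was added. Of the genes that mark squamous epithelium, Grhl3 (8.72%), Pitx1 (17.9%) and Krt4 (88.5%) could be tested. Of the muscle markers Des (11.7%) and Myod1 (12.3%) could, of the fibroblast markers Twist1 (5.74%) and Col1a2 (17.9%), and no marker of leukocytes. The makeup of the tissue was thus hardly checked by these data.

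The germline promoters were methylated in all 4 groups. The median of the 10 mean levels was 86.6%, and that of the 6 tested genes 81.7%. Over the 11840 tested promoters the median was 6.13%, with 3.18% above 75% and 90.3% below 25%. The highest mean was that of Dpep3, 94.3% ± 5.50 (SD, n = 11), followed by Asz1 with 92.5% ± 3.19 (n = 11) and Sycp1 with 91.7% ± 3.38 (n = 12). Tex101 had 88.0% ± 2.31 (n = 12), Hormad1 87.3% ± 6.40 (n = 11) and Stk31 85.8% ± 8.17 (n = 9). Mael had 82.3% ± 3.58, Ddx4 81.1% ± 8.43, Sycp3 73.6% ± 9.98 and Dazl 35.9% ± 7.41, each over 12 samples. In this order only 2 neighbours differed by more than the larger of their SDs: Sycp1 and Tex101, by 3.67 points, and Sycp3 and Dazl, by 37.7 points. Since the genes were chosen as methylated in somatic tissue, the levels are a description and were not tested.

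**Figure D1:**
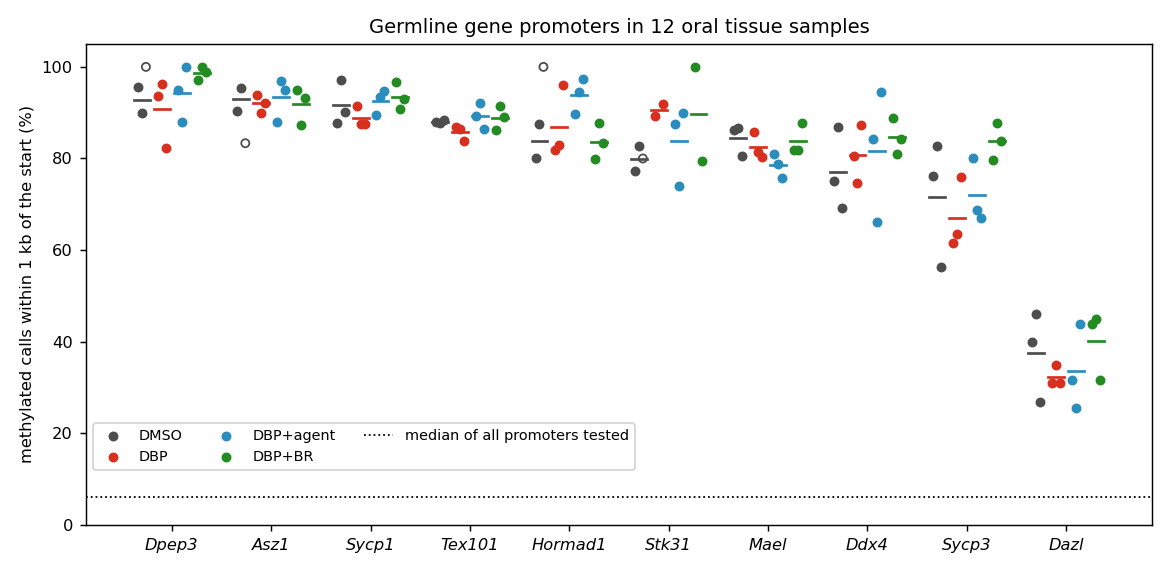
Methylation level (percent of methylated calls within 1000 bp of the start) of the 10 germline promoters in the 12 samples, 1 point per sample, coloured by group, with bars for group means, open circles for samples under 10 calls and a dotted line for the median of all tested promoters. Dazl lies between 25.6% and 46.1% in all samples, while the points of the other genes with at least 10 calls lie at 56.2% or above.

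Among the RNA-binding and germ granule genes, Dazl, which binds mRNAs and controls their translation in germ cells, had the lowest level over the whole window. Its promoter (ENSMUSG00000010592.7, chromosome 17, start 50432924, minus strand) had 141 CpGs, more than any other of the 10. It was at 40%, 46.1% and 26.8% in the DMSO group, 31%, 34.9% and 31% in the DBP group, 31.5%, 25.6% and 44.0% in the DBP+agent group, and 43.8%, 44.9% and 31.6% in the DBP+BR group. The group means were 37.6% ± 9.84, 32.3% ± 2.27, 33.7% ± 9.36 and 40.1% ± 7.41 in this order, and the ranges of the groups overlapped. The calls per sample ran from 41 in DMSO 3 to 5378 in DBP+BR 1.

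The intermediate level of Dazl was the sum of 2 stretches with opposite levels, which were separated after their values were seen. From 1000 bp upstream to 400 bp after the start, calls fell on 51 CpGs, and their level was between 88.2% and 97.6% in the 11 samples with at least 10 calls. From 401 to 1000 bp after the start, calls fell on 55 CpGs with a level between 7.31% and 13.5% in the 12 samples. In the profile by 250 bp the level was 97.4% just upstream of the start, 93.8% in the first bin after it, 51.1% in the next, 5.67% in the third and 0.90% in the last. The boundary lay in the first intron. The CpG at 440 bp was at 98.8%, that at 451 bp at 64.7%, that at 470 bp at 15.9% and that at 492 bp at 2.14%. The CpG at 480 bp is within an MspI site and was at 53.0%. GENCODE vM1 has a second Dazl transcript that starts 707 bp after the first, in the stretch with low levels.

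The share of a sample's calls that fell in the second stretch was 67.2%, 59.8% and 80.5% in the DMSO group, 72.0%, 69.9% and 71.2% in the DBP group, 76.3%, 81.6% and 60.8% in the DBP+agent group, and 57.8%, 56.1% and 76.6% in the DBP+BR group. The samples with the highest levels over the whole window, DMSO 2, DBP+BR 2, DBP+agent 3 and DBP+BR 1, were those with the smallest shares, and the 2 with the lowest level, DBP+agent 2 and DMSO 3, had the largest. The spread of the whole-window level of Dazl thus moved with where its reads lay. In the second stretch alone, the level was 13.5%, 11.5% and 12.1% in the DMSO group, 8.79%, 9.68% and 7.31% in the DBP group, 12.0%, 9.58% and 10.9% in the DBP+agent group, and 7.43%, 7.69% and 12.6% in the DBP+BR group. The DMSO samples lay above the DBP samples without overlap, and the DBP+BR samples lay on both sides. Over whole windows, DMSO and DBP samples did not overlap in 10.9% of all tested promoters. Without the CpGs in MspI sites the DMSO samples, at 8.88%, 3.85% and 7.14%, overlapped the DBP samples, at 4.90%, 5.09% and 5.84%. No test is given, since the stretch was chosen after its values were seen. DMSO 3 had 33 calls there, with a 95% Wilson interval of 4.82% to 27.3%. Wilson intervals cover counting error only, and are too narrow where 1 read gives calls at several CpGs.

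**Figure D2:**
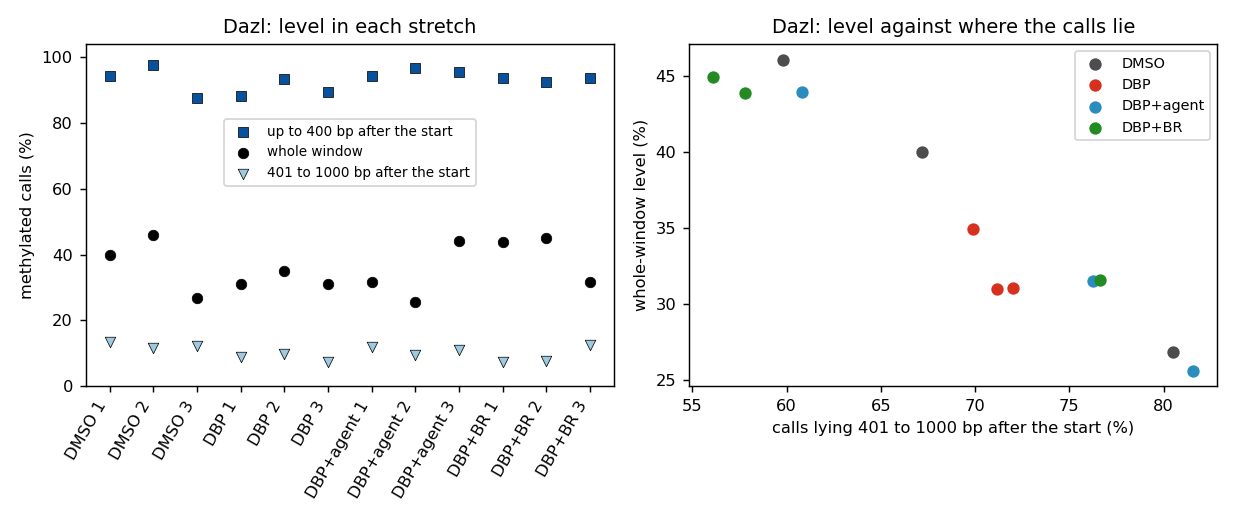
Dazl in the 12 samples: on the left the level up to 400 bp after the start (squares), from 401 to 1000 bp (triangles) and over the whole window (circles), in percent, and on the right the whole-window level against the percent of calls that lie 401 to 1000 bp after the start. The first stretch stays at 87.5% or above and the second at 13.5% or below, while the whole-window level is lower where more of the calls lie in the second.

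Ddx4, the mouse Vasa homologue, is an RNA helicase of the germ granules (ENSMUSG00000021758.7, chromosome 13, start 113442518, minus strand). Its promoter was at 75%, 86.8% and 69.2% in the DMSO group, 80.5%, 74.7% and 87.4% in the DBP group, 84.4%, 66.0% and 94.6% in the DBP+agent group, and 88.9%, 81.0% and 84.3% in the DBP+BR group. The lowest and the highest sample were both of the DBP+agent group, whose SD was 14.5 points, and the groups overlapped. The value of DMSO 3 rests on 13 calls, with a Wilson interval of 42.4% to 87.3%.

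Mael works in the piRNA pathway that silences transposons (ENSMUSG00000040629.3, chromosome 1, start 168168875, minus strand). Its levels were 86.1%, 86.8% and 80.6% in the DMSO group, 85.7%, 81.4% and 80.3% in the DBP group, 81.1%, 78.7% and 75.8% in the DBP+agent group, and 81.7%, 81.9% and 87.7% in the DBP+BR group. The samples ran from 75.8% to 87.7%, with those of the DBP+agent group at the lower end but overlapping the DBP samples. From 500 to 749 bp after the start only 1 sample had at least 10 calls, and its level there was 35.7%. The spread over samples was 3.58 points, near the 3.02 points that counting error alone would give.

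Asz1, a protein of the germ granules needed for piRNA production (ENSMUSG00000010796.5, chromosome 6, start 18059061, minus strand), was at 90.5% and 95.5% in DMSO 1 and 2, 93.9%, 90.0% and 92.1% in the DBP group, 88.0%, 97.0% and 95% in the DBP+agent group, and 94.9%, 87.3% and 93.2% in the DBP+BR group. DMSO 3 had 6 calls and 83.3%. The groups overlapped, and the spread over the other 11 samples, 3.19 points, was close to the 3.07 points of counting error.

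Stk31, a testis protein with a tudor domain and a kinase domain (ENSMUSG00000023403.8, chromosome 6, start 49345603, plus strand), was read at few CpGs, and none of them in all 12 samples. It was at 77.3% and 82.7% in DMSO 1 and 2, 89.3% and 92.0% in DBP 1 and 3, 87.6%, 74% and 90.0% in the DBP+agent group, and 100% and 79.5% in DBP+BR 1 and 3. DMSO 3 was at 80.0% with 5 calls, and DBP 2 and DBP+BR 2 had none. Its median of 26.5 calls per sample allowed no comparison of groups.

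**Figure D3:**
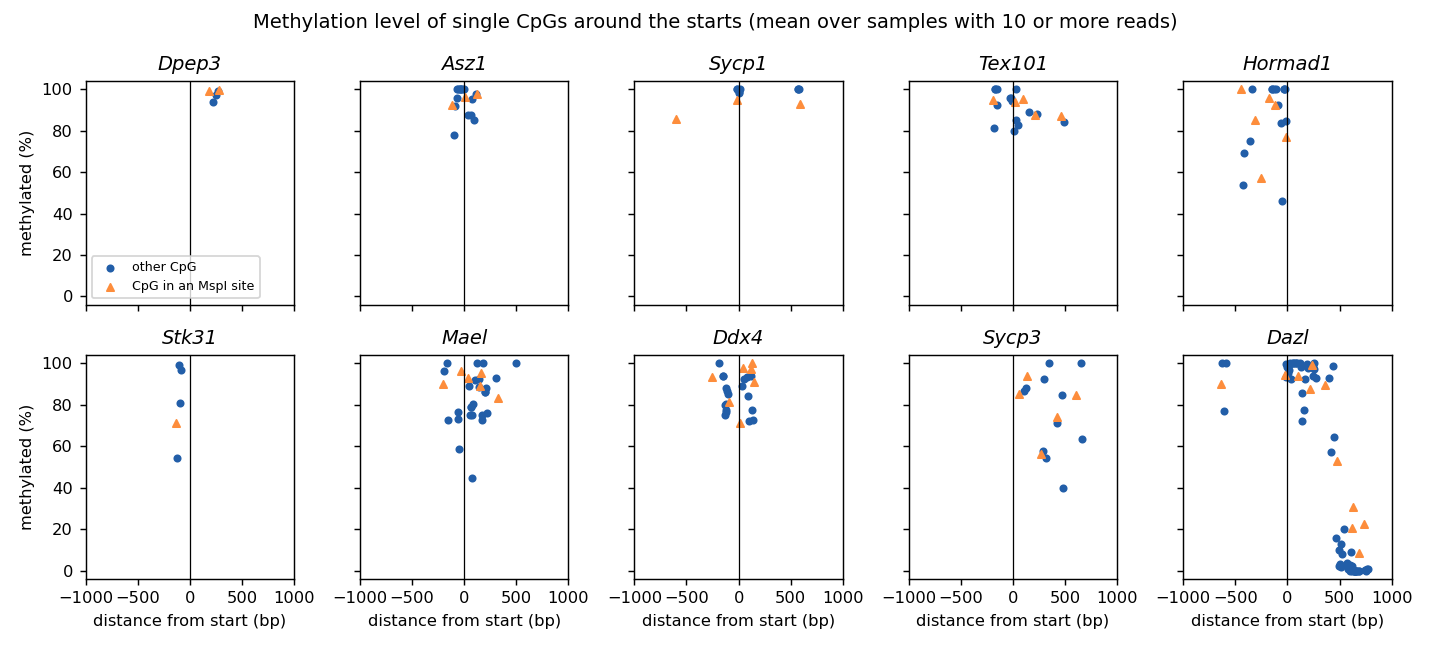
Level of single CpGs (percent, mean over samples with at least 10 reads) against distance from the start in bp, 1 panel per gene, for CpGs with at least 10 reads in at least 1 sample, with triangles for CpGs in MspI sites and circles for others. Dazl falls from 98.8% at 440 bp to 2.14% at 492 bp, whereas the CpGs of the other genes lie mostly above 75% along the windows.

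Among the meiotic genes, Hormad1 encodes a HORMA domain protein of the unpaired chromosome axes (ENSMUSG00000028109.8, chromosome 3, start 95363599, plus strand). It was at 80.0% and 87.5% in DMSO 1 and 2, 81.8%, 82.9% and 96.2% in the DBP group, 89.7%, 94.4% and 97.3% in the DBP+agent group, and 79.8%, 87.8% and 83.3% in the DBP+BR group. DMSO 3 was at 100% with 9 calls. The DBP+agent samples, at 93.8% ± 3.86, were the highest group and overlapped the DBP samples.

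Sycp1 forms the transverse filaments of the synaptonemal complex, the structure that joins paired chromosomes in meiosis (ENSMUSG00000027855.8, chromosome 3, start 102740023, minus strand). Its levels were 87.9%, 97.0% and 90.2% in the DMSO group, 91.4%, 87.6% and 87.5% in the DBP group, 89.5%, 93.5% and 94.8% in the DBP+agent group, and 96.8%, 90.9% and 92.9% in the DBP+BR group. The DBP group had the lowest mean, 88.8% ± 2.21, and overlapped each of the others. Its window held 101 CpGs, with reads at 64 of them in some sample but at only 1 of them in all 12.

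Sycp3, which builds the lateral elements of the same complex (ENSMUSG00000020059.3, chromosome 10, start 87922314, plus strand), was the most variable of the 10 over the samples. It was at 76.2%, 82.7% and 56.2% in the DMSO group, 61.5%, 63.4% and 76.1% in the DBP group, 80.2%, 68.8% and 67% in the DBP+agent group, and 79.6%, 87.7% and 83.8% in the DBP+BR group. The DBP+BR samples, at 83.7% ± 4.07, all lay above the DBP samples, at 67% ± 7.90, and overlapped the other groups. For DBP+BR against DBP a lack of overlap in either direction was found in 10.1% of all tested promoters. DMSO 3 had 32 calls, with a Wilson interval of 39.3% to 71.8%, and the SD over the 12 samples, 9.98 points, was above the 4.17 points of counting error. The level was not even along the window: it was 76.7% ± 8.81 from 250 to 499 bp after the start (n = 12), and from 500 to 749 bp, where 6 samples had at least 10 calls and 131 calls lay in all, it ran from 0% to 83.8%.

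The remaining pair are proteins of the sperm cell surface. Tex101, a glycoprotein needed for male fertility (ENSMUSG00000062773.5, chromosome 7, start 25457069, minus strand), was the steadiest of the 10 and had 271 to 1062 calls per sample. It was at 88.1%, 87.7% and 88.4% in the DMSO group, 86.8%, 86.4% and 83.8% in the DBP group, 89.4%, 92.0% and 86.5% in the DBP+agent group, and 86.2%, 91.5% and 89.1% in the DBP+BR group. The DBP samples lay below the DMSO samples without overlap, at 85.7% ± 1.67 against 88.1% ± 0.312. Such a lack of overlap, in either direction, was found in 10.9% of all tested promoters for this comparison. The gap between the groups ran from 86.8% to 87.7%. The SD over the 12 samples was 2.31 points, against the 1.52 points that counting error alone would give if calls were independent.

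Dpep3, a membrane dipeptidase of the testis that binds Tex101 (ENSMUSG00000031898.8, chromosome 8, start 108503319, minus strand), was at 95.7% and 90.0% in DMSO 1 and 2, 93.8%, 96.3% and 82.4% in the DBP group, 95%, 87.9% and 100% in the DBP+agent group, and 97.1%, 100% and 98.8% in the DBP+BR group. DMSO 3 had 2 calls. For that sample the gene fell short of the minimum of 10 calls and was left out of the main test. The DBP+BR samples lay above the DBP samples without overlap, a pattern found in either direction in 10.1% of all tested promoters. The median was 25 calls per sample over the 12 samples.

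Leaving out the CpGs in MspI sites moved the levels of Mael and Sycp1 by more than their SD over samples. Without them Mael was at 78.6% ± 4.25 and Sycp1 at 96.1%, and within MspI sites they were at 94.4% and 87.7%. Dazl was at 31% ± 8.26 outside and 60.1% ± 8.18 inside MspI sites. In the second stretch of Dazl the CpGs outside MspI sites were at 5.91% ± 1.59. The other 7 genes had levels between 73.4% and 94.4% outside these sites. In the 11024 promoters that could be tested without MspI sites, the median was 0.748% and 1.90% were above 75%.

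Single CpGs with at least 10 reads in at least 6 samples numbered 55 in these promoters. Of these, 20 belonged to Dazl and ranged from 0% to 53.0%, with 15 of them under 10%. The other 35, in Tex101 (15), Ddx4 (10), Mael (4), Sycp3 (3), Asz1 (2) and Sycp1 (1), ranged from 58.6% to 100% with a median of 86.8%, and 31 of them were above 75%. The lowest of the 35 was in Mael, 54 bp upstream of its start, at 58.6%, and the next in Sycp3, 421 bp after its start, at 71.4%. In Mael a CpG in an MspI site 29 bp upstream was at 96.2%.

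Methylation above 75% was rare among promoters with dense CpGs. Of the 6963 tested promoters with an observed-to-expected ratio of at least 0.6, only 17 (0.244%) had a mean level above 75%, and Sycp1, Mael and Ddx4 were 3 of them. Dazl, with a ratio of 0.768 the densest of the germline promoters, was not among them, at a mean of 35.9%. The others were headed by Otud6a (94.9%), the testis ribosomal protein gene Rpl10l (94.8%) and the germ cell transcription factor gene Taf7l (93.0%), and held D1Pas1 (92.2%), a relative of Ddx4's helicase family that is active in testis. The median SD over samples was 6.45 points among the 376 promoters above 75% and 2.29 points over all tested, which include the 376. The 2 sets were not matched for level or calls, and 90.3% of all tested lay below 25%.

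**Figure D4:**
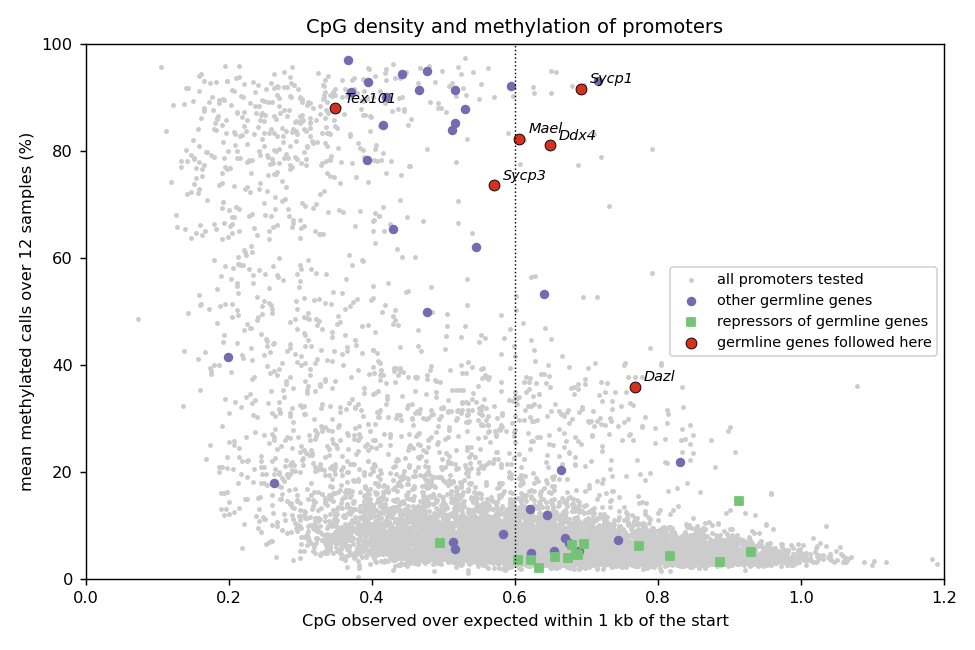
Mean methylation level (percent) against the observed-to-expected CpG ratio of the tested promoters (grey), with the 6 tested germline genes named, 34 other germline genes in purple, repressors of germline genes as green squares and a dotted line at 0.6. Most promoters with a ratio of at least 0.6 lie near the bottom, and Sycp1, Mael and Ddx4 lie above 75%.

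Methylation was not shared by all genes of these pathways. Of 62 other germline genes listed by role, 34 could be tested, with 15 (44.1%) above 75% and 14 (41.2%) below 25%. Genes of the piRNA pathway and germ granule had a median of 17.8% (7 tested, 2 above 75%). Meiotic genes had 20.3% (15 tested, 4 above 75%) and other germ cell genes 91.1% (12 tested, 9 above 75%). These medians leave out genes with under 10 calls in some sample. Left-out piRNA genes with levels in 8 to 11 samples were Tex19.1 (91.9%), Tdrd9 (89.3%), Rnf17 (85.3%), Tdrd1 (77.0%) and Tdrkh (6.84%). Left-out meiotic genes with levels in 10 or 11 samples were Tex14 (90.4%), Stra8 (81.4%) and Mei1 (19.4%). The highest of the 34 tested were Tuba3b, a testis tubulin, at 97.0%, and Sohlh2, a germ cell transcription factor, at 95%. Next was Pdha2, the testis form of a pyruvate dehydrogenase subunit, at 94.4%. The lowest were Mnd1, a meiotic recombination factor, at 4.86%, Exd1 of the piRNA pathway at 5.20% and Tex15 at 5.25%. Genes for repressors of germline genes, such as E2f6 and Setdb1, ranged from 1.95% to 14.5% (15 tested), and broadly expressed genes from 3.69% to 8.12% (10 tested).

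The comparison of the groups asked whether DBP changed these promoters, and whether either agent given with DBP changed them further. None of the 6 tested promoters passed an adjusted p of 0.05 in limma for any difference among the 4 groups, where 0% of the 11840 promoters were called and 775 had an unadjusted p under 0.05. For DBP against DMSO 0 of the 6 were called, beside 0.00845% of all promoters, which is 1 promoter, and 716 had an unadjusted p under 0.05. For DBP+agent against DBP 0 of the 6 were called, beside 0% of all (329 at an unadjusted p under 0.05), and for DBP+BR against DBP 0 of the 6, beside 0% of all (610). edgeR called 0 promoters in each of these comparisons, with 434, 363, 254 and 445 at an unadjusted p under 0.05. Of the other germline genes tested 0 of 34 were called by limma in each comparison, as were 0 of 15 repressors and 0 of 10 broadly expressed genes. At an unadjusted p under 0.05 there were 2 of the 34 for DBP against DMSO, 0 for DBP+agent against DBP and 3, all in the list of other germ cell genes, for DBP+BR against DBP. The comparisons of both agents share the DBP samples.

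After DBP the fitted difference from DMSO was -5.33 points for Dazl (95% interval -18.3 to 7.60), -2.02 for Mael (-7.34 to 3.30), -2.38 for Tex101 (-6.15 to 1.39), -2.85 for Sycp1 (-8.54 to 2.84) and -4.69 for Sycp3 (-19.4 to 10.1), and 3.84 for Ddx4 (-11.5 to 19.2). Thus 5 of the 6 estimates were below 0, and each interval held 0. Of all 11840 promoters, 7267 had a log2 odds ratio below 0. In each comparison the estimate for Dazl is of its whole window, whose level moved with where its reads lay. The median log2 odds ratio of the 6 was -0.32, against -0.13 over all tested promoters. In each comparison the added count of 1 pulls this ratio toward 0 more where calls are fewer. The 6 had a median level of 81.7% and all promoters 6.13%, so a difference in depth moves them in opposite directions. How much depth added was not tested. The 3 DBP samples lay wholly above or below the 3 DMSO samples in 1 of the 6, Tex101, and in 10.9% of all promoters. With 3 samples against 3, an exact permutation test of a single gene cannot go below 0.10.

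For DBP+agent against DBP the difference was 1.40 points for Dazl (-11.5 to 14.3), 0.809 for Ddx4 (-14.5 to 16.2), -3.95 for Mael (-9.27 to 1.37), 3.62 for Tex101 (-0.145 to 7.39), 3.74 for Sycp1 (-1.94 to 9.43) and 5.00 for Sycp3 (-9.75 to 19.7). No gene had groups that did not overlap, a pattern found in 9.30% of all promoters. The median log2 odds ratio was 0.37 for the 6 and -0.02 over all, without a match for level, and depth differed between the groups.

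For DBP+BR against DBP all 6 estimates were above 0, as were the log2 odds ratios of 4009 of the 11840 promoters. The median log2 odds ratio was 0.46 for the 6 against -0.18 over all promoters. These medians and the count of 4009 are not matched for level, and depth differed between the groups. They therefore do not show that the 6 moved apart from the rest. The largest estimate was that of Sycp3, 16.7 points higher with BR extract (95% interval 1.96 to 31.5). Its log2 odds ratio was 1.33 (0.29 to 2.37). Its unadjusted p in limma was 0.0157 and its adjusted p 0.912, so it did not pass. It was 1 of the 6 whose groups did not overlap, as in 10.1% of all promoters. Dazl differed by 7.81 points (-5.12 to 20.7), Ddx4 by 3.88 (-11.5 to 19.2) and Mael by 1.32 (-4.0 to 6.64). Tex101 differed by 3.23 points (-0.538 to 7.0) and Sycp1 by 4.67 (-1.02 to 10.4). Within the stretches of Dazl the DBP+BR and DBP means were closer, at 93.3% and 90.3% up to 400 bp after the start. From 401 to 1000 bp these means were 9.25% and 8.59%. When the library DBP+BR 1, which lacked reads at many CpGs, was left out, the log2 odds ratio of Sycp3 was 1.52. It was 1.15 without DBP 1, 1.21 without DBP 2 and 1.13 without DBP+BR 2, each with an interval that held 0 and an unadjusted p in limma of 0.0572, 0.0505 and 0.0575. Over CpGs read in all 12 samples it was 0.85 (unadjusted p in limma 0.106), and without CpGs in MspI sites 1.09 (0.159). The intervals of the 6 genes were wide, and differences of several points could not have been seen in Dazl, Ddx4 or Sycp3.

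**Figure D5:**
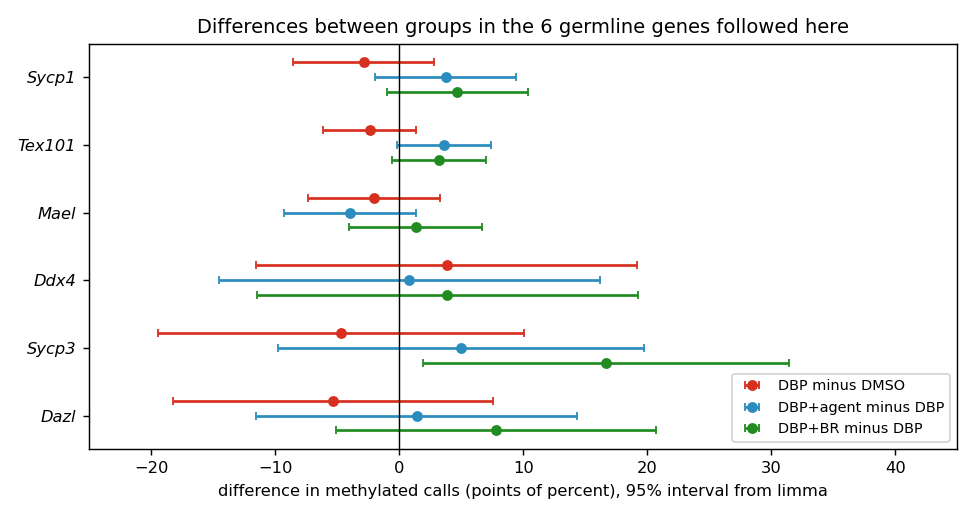
Differences in methylation level between groups, in percentage points with 95% intervals from limma, for the 6 tested germline promoters in the 3 comparisons. All intervals cross 0 except that of Sycp3 for DBP+BR against DBP, which runs from 1.96 to 31.5 points.

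At single CpGs, reads were pooled over the samples of a group and compared by logistic regression, with a call at a q-value under 0.01 and a difference above 25 points. For DBP against DMSO 5 CpGs of the germline promoters had enough reads, in Tex101 and Sycp1, and 0 were called, beside 0.0578% of 53602 CpGs, with 2 of the 5 and 10.8% of all at an unadjusted p under 0.05. For DBP+agent against DBP 0 of 27 were called, beside 0.754% of 127353, with 13 of the 27 and 27.0% of all at an unadjusted p under 0.05. For DBP+BR against DBP 0 of 21 were called, beside 0.992% of 104409, with 9 of the 21 and 32.4% of all at an unadjusted p under 0.05. This regression takes reads as independent and does not see the spread between samples. An F test with overdispersion and edgeR, which do, called 0 CpGs of the whole data in each comparison. At an unadjusted p under 0.05 the F test had 703, 3919 and 4432 CpGs and edgeR 1418, 3711 and 2580 in the same order, of which 2 in each tool were of the germline promoters, both for DBP+agent against DBP.

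With a difference above 10 points in place of 25, 4 of 27 germline CpGs passed for DBP+agent against DBP, beside 5.43% of all CpGs tested, and 3 of 21 for DBP+BR against DBP, beside 8.62%. These calls rest on the scaled reads. With the unnamed agent, the Ddx4 CpG 113 bp upstream of the start was at 100% against 78.7% with DBP alone, and that 99 bp upstream at 98.7% against 81.3%. The Mael CpG 62 bp upstream was at 90.2% against 72.0%, whereas a Dazl CpG 498 bp after the start, at the edge of the stretch with low levels, was at 2.92% against 20.3%. With BR extract, the Tex101 CpG at 487 bp was at 91.8% against 81.6%, the Sycp3 CpG at 466 bp at 92.6% against 75.6%, and the Mael CpG 56 bp upstream at 59.3% against 78.9%. The direction thus differed between CpGs, with 2 of these 7 lower and 5 higher in the group with an added agent. For the Sycp3 CpG the samples overlapped: it was at 81.8%, 59.1% and 88.2% in the DBP samples and at 100%, 77.3% and 100% in the DBP+BR samples, each on 17 to 37 reads.

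Levels of the best-covered CpG are given for Dazl, Tex101 and Sycp1. In Dazl, the MspI-site CpG at 480 bp, which lies at the boundary and was read 3 to 128 times per sample, was at 63.3% ± 3.33 in the DMSO group, 37.6% ± 7.40 in the DBP group, 61.8% ± 2.51 in the DBP+agent samples and 38.4% ± 34.5 in the DBP+BR group. In Tex101 the CpG at 487 bp, read 24 to 215 times per sample, was at 79.2%, 81.3%, 87.5% and 88.2% on average in the same order. In Sycp1 the CpG 599 bp upstream, read 27 to 135 times, was at 91.9% ± 7.73, 79.1% ± 4.15, 86.4% and 85.6%. The CpGs of Tex101 and Sycp1 were tested and not called, while that of Dazl had too few reads in some samples to be tested. In the other 7 genes the smallest depth over the samples was 8 reads or fewer at the best-covered CpG.

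The mean of the 6 tested promoters ran from 68.6% in DMSO 3 to 81.2% in DMSO 2, so the DMSO group spanned the range of all 12 samples. The members did not move as 1 unit: over the 12 samples, Pearson's r between pairs of them ran from -0.510 for Ddx4 and Tex101 to 0.605 for Dazl and Ddx4, values given as a description of samples that share their libraries and depth. Among the 5914 other promoters that varied at least as much as the median promoter, those whose level followed this mean most closely over the 12 samples were Calml4 (r = 0.879), Dcaf12l1 (0.863), H2-M10.3 (0.826), Slc3a1 (0.799) and Ntn1 (0.785), the highest of many correlations.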

How the data were processed

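ERRBS libraries of 12 oral soft tissue samples were analysed. Per the methods of the study and the submitters' processing notes, fragments were trimmed with Trim Galore 0.3.3 and aligned to mm9 with Bismark 0.10.1. The authors deposited 1 coverage table per sample, with the percent methylated and the counts of methylated and unmethylated reads at each CpG cytosine. No UMIs were used, so precision covers counting error only. Here the counts were pooled over CpGs within 1000 bp of the first start of each protein-coding gene in GENCODE vM1. log2((methylated + 1) / (unmethylated + 1)) was fitted for 11840 promoters with at least 10 calls in each sample with limma 3.58.1 (R 4.3.3) over the 4 groups, with Benjamini-Hochberg adjustment over all promoters and a threshold of 0.05. Intervals in percentage points come from the same model on percent methylated. For single CpGs, cytosines with fewer than 10 reads or with coverage past its 99.9th percentile were dropped, read numbers were brought to the highest median of the samples, both strands of a CpG were added, and logistic regression was used (q-value under 0.01, over 25 points). The study's methods use these per-CpG settings, and its promoter test was not stated. edgeR 4.0.16 was an alternative.

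The genes and lists were chosen with earlier results of these data known. All 10 genes were named with their level in every sample. Also named were the best-covered CpG of Dazl, Tex101 and Sycp1 and the 3 highest and 3 lowest promoters of the other germline lists. The 5 promoters most like the mean of the tested genes were named as well. Sequences and motifs were read from the mm9 reference. On simulated counts for DBP against DMSO, limma recovered 66 of 100 promoters changed by a log2 odds ratio of 2. Of those changed by 4 it recovered 96 of 100. It also called 39 unchanged promoters, a larger share of its calls than the adjusted p threshold is meant to allow. Logistic regression recovered 180 of 200 CpGs changed by 40 points. The simulated spread between samples was not shown to match that of the germline promoters. These rates therefore cannot be read as the power to find changes in them. No same-numbered samples were stated to be paired, and deviations of samples with the same number correlated between -0.04 and 0.17. The alternative without CpGs in MspI sites was added after seeing the data.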

Additional observations from a re-analysis of the deposited data

How the results depend on the processing

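For promoters, the count of called germline genes was 0 under each alternative fitted with limma or edgeR (windows of 500 and 2000 bp, other choices of cytosines, starts, minimum of calls, prior count and scale). Logistic regression, which ignores the spread between samples, called 5 of the 6 for any difference among the groups (Dazl, Ddx4, Mael, Tex101 and Sycp3, with 7209 of the 11840 promoters called overall) and 3 for DBP+BR against DBP (Dazl, Tex101 and Sycp3, with 2662 overall). With a prior count of 5, limma called 143 promoters for any difference, none of them among the 6. At single CpGs, a difference above 10 points in place of 25 gave 4 calls for DBP+agent against DBP (in Mael, Ddx4 and Dazl, beside 5.43% of all CpGs) and 3 for DBP+BR against DBP (in Mael, Tex101 and Sycp3, beside 8.62%). Leaving out each sample in turn gave 0 to 0 called promoters in each comparison, 0 to 0 CpGs for DBP against DMSO, and 0 to 2 for each agent: 1 of 32 without DBP 2 (Dazl, beside 1.37% of all CpGs), 1 of 28 without DBP 3 (Ddx4, 1.28%) and 2 of 27 without DBP+agent 1 (Mael and Sycp3, 1.75%) for the unnamed agent, and 2 of 21 without DBP 3 (Mael and Ddx4, 1.57%) for BR extract. The median level of the 10 genes was 85.7% to 87.4% over the samples left out.

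With the replicate number as a block, 0 promoters and 0 CpGs of the germline genes were called in each comparison. The numbers share no stated origin: of 18 same-numbered pairs 2 correlated above 0.1, and 5 of the 12 samples correlated best with a sample of their own number. The unadjusted p of Sycp3 for DBP+BR against DBP ranged from 0.00842 to 0.159 over the alternatives in limma and edgeR. Of 58 alternative levels of single genes 9 moved beyond the replicate SD: Dazl was at 22.3% over cytosines with at least 10 reads, 10.1% over CpGs read in all samples, 73.1% within 500 bp and 53.9% as the mean of CpG levels, and the others were Mael (78.6% and 86.6%) and Sycp1 (85.7%, 96.9% and 96.1%). With a minimum of 1 call in place of 10, limma tested all of the genes but Stk31 and called 0 of 9 in each comparison. An unadjusted p under 0.05 was then found for Dpep3 (any difference, and DBP+BR against DBP), Hormad1 (DBP+agent against DBP) and Sycp3 (DBP+BR against DBP), where Dpep3 and Hormad1 rest on as few as 2 and 9 calls in DMSO 3.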
